A study of Homo sapiens with 2 samples.

Results

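GAS6 and the TAM receptors are 5 genes here, the secreted ligands GAS6 and PROS1 and the receptor tyrosine kinases AXL, TYRO3 and MERTK, out of 12445 named genes on the array. The members were selected by gene symbol, and the family was picked from the log2 ratios of GAS6, which had opposite signs on the 2 arrays of the study. Those GAS6 values are therefore a description. Each member had 1 probe, and 4 of the 5 members had a value. MERTK had none on either array, as was the case for 15.5% of all probes, and its level in these cells is not known from these data.

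The study asked how CD26, a cell surface dipeptidyl peptidase encoded by DPP4, alters gene expression in mesothelioma, a tumour of the lining of the body cavities. One array of 2 colours compared ACC-MESO1 cells depleted of CD26 by an interfering RNA (called siRNA in one label and shRNA in another) with control ACC-MESO1 cells. The other compared MSTO-211H cells given a pLNCX2 vector carrying CD26 with control MSTO-211H cells. Both are established human mesothelioma lines, grown with fetal calf serum, and neither the treatment of the control cells nor the use of clones or pools is stated in the labels. Each comparison had 1 array, so there is no p-value, replicate SD or standard error, and precision is limited by that number. Each value below is a log2 ratio, manipulated cells over control cells, where 1 is 2-fold.

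GAS6 and protein S, the product of PROS1, are vitamin K-dependent proteins. Their carboxylated Gla domain binds phosphatidylserine on dying cells or shed membrane, and their other end binds a TAM receptor. GAS6 is a ligand of all TAM receptors, with AXL as its tightest partner, while protein S acts through TYRO3 and MERTK and also serves as an anticoagulant cofactor. The receptors signal through PI3 kinase and AKT, promote survival and motility, drive the uptake of apoptotic cells and restrain cytokine and interferon signalling in phagocytes. AXL is often found on mesenchymal and mesothelioma cells, and MERTK on macrophages.

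DPP4, the manipulated gene, was at -3.92 (15.1-fold lower) where CD26 was depleted and at 5.51 (45.7-fold higher) where it was transfected, in the direction of the labels. Different probes of a gene had a pooled SD of 0.42 after depletion (566 genes) and 0.45 after transfection (471 genes). That is the nearest thing to a repeat measurement in the data and is given as the spread beside each value. Different probes are not repeats of 1 probe, so it is not the measurement error of a member. It is also close to the SD over all probes, 0.48 after depletion and 0.50 after transfection. Over all genes the median was 0.01 on both arrays. At least 2-fold higher were 3.31% of the genes after depletion and 4.09% after transfection, and at least 2-fold lower were 1.56% and 1.37%. On both arrays the control cells carried Cy5 and the manipulated cells Cy3, with no dye swap. A dye effect of a probe and a change in the same direction in both experiments therefore cannot be told apart.

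GAS6 was the member farthest from 0 on both arrays. Its log2 ratio was 1.07 (pooled probe SD 0.42, n = 1 array) in the depleted ACC-MESO1 cells, which is 2.10-fold higher than in control cells. In the transfected MSTO-211H cells it was -1.37 (0.45, n = 1 array), which is 2.59-fold lower than in control cells. So GAS6 was higher where the DPP4 ratio was below 0 and lower where it was above 0, in different cell lines. In such bulk RNA fewer cells with the transcript and less RNA per cell cannot be told apart. It ranked 293rd from the top of 10347 genes after depletion and 34th from the bottom of 9359 genes after transfection. Among the 8956 genes measured on both arrays, 0.0558% combined a ratio at least 2-fold up in the depleted cells with one at least 2-fold down in the transfected cells. These genes were C19orf33 (1.09 and -2.50), SUN3 (1.90 and -1.17), CHST11 (1.19 and -1.23), CDA (1.10 and -1.08) and GAS6. C19orf33 and SUN3 are outside the naming rule and were chosen after their values were seen. The difference between its ratios, 2.44, was the 15th largest in that direction. These ranks describe the values that picked the family and support nothing further. The RNA genes GAS6-AS1 and GAS6-DT lie beside or over GAS6, and since the probe sequence was not used here, their part in the signal was not tested.

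**Figure D1:**
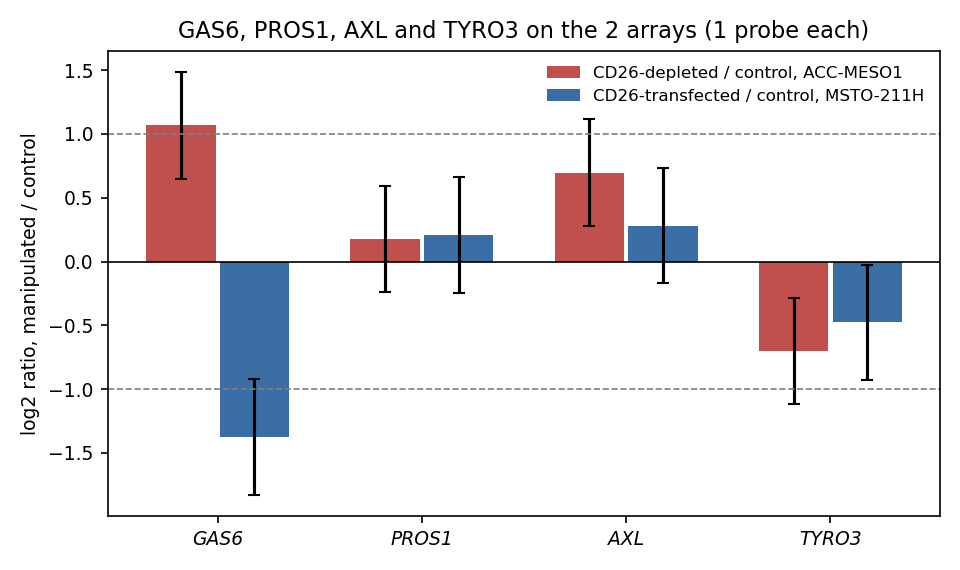
Log2 ratios of manipulated over control cells for the 4 measured members (bars, 1 probe and 1 array each), with error bars of 1 pooled SD between probes of a gene (0.42 and 0.45) and dashed lines at 2-fold. GAS6 lies at 1.07 and -1.37 on opposite sides of 0, whereas PROS1 and AXL are above 0 and TYRO3 below 0 on both arrays.

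PROS1, the other ligand gene, was at 0.18 (1.13-fold higher) after depletion and 0.21 (1.16-fold higher) after transfection. Both values are smaller than the pooled SD between probes. Measured from the median of the ribosomal protein genes they were 0.48, above that SD, and 0.44, just within it. After depletion 62.5% of all genes lay as far from 0 or farther, and after transfection 57.4% did. The first ratio minus the second was -0.03. PROS1 has a close pseudogene, PROS2P, and the probe sequence was not used here, so a contribution from it was not tested.

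AXL, the receptor with the tightest binding of GAS6, had a log2 ratio of 0.70 (1.62-fold higher) in depleted ACC-MESO1 cells. Only 7.12% of genes were higher, and the value is 1.67 times the pooled SD between probes. In transfected MSTO-211H cells the ratio of AXL was 0.28 (1.22-fold higher), within that SD, and 24.5% of genes were higher. AXL thus had the sign of GAS6 after depletion and the opposite sign after transfection. It was short of 2-fold on both arrays as deposited. Ribosomal protein genes had medians of -0.31 after depletion and -0.23 after transfection. Measured from those medians, the AXL ratio was 1.01, at the 2-fold line, and 0.51.

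TYRO3, a receptor of both ligands, was the only measured member below 0 on both arrays. Its log2 ratio was -0.70 (1.63-fold lower) in depleted cells, where 4.74% of genes were lower. In transfected cells it was -0.48 (1.39-fold lower), where 10.2% of genes were lower. Measured from the ribosomal protein medians the TYRO3 ratios were -0.39 and -0.25, both within the pooled SD between probes. The mean of its ratios, -0.59, ranked 209th from the bottom of 8956 genes. AXL lay on the other side, with a mean of 0.49 at rank 629 from the top. TYRO3 has a transcribed pseudogene, TYRO3P, whose part in the signal was not tested.

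The start regions of GAS6, AXL and TYRO3 are shown because these were the measured members farthest from 0 in opposite directions. They are the 250 bases before the annotated start, 5′ to 3′ on the gene's strand, from RefSeq (GRCh38.p14), at chr13:113864077-113864326 on the minus strand, chr19:41218973-41219222 on the plus strand and chr15:41558962-41559211 on the plus strand. Capitals mark the GC box, GGGCGG or its complement CCGCCC, the core that SP1 and SP3 bind.
GAS6: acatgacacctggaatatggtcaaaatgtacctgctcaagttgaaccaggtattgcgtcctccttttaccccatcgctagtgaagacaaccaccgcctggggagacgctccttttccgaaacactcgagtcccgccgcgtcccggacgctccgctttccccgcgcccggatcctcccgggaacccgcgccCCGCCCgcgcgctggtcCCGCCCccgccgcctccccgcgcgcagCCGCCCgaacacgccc
AXL: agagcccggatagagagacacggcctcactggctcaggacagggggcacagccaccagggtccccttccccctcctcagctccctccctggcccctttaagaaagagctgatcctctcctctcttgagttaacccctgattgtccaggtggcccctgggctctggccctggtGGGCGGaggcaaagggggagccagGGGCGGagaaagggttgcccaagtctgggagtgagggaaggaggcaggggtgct
TYRO3: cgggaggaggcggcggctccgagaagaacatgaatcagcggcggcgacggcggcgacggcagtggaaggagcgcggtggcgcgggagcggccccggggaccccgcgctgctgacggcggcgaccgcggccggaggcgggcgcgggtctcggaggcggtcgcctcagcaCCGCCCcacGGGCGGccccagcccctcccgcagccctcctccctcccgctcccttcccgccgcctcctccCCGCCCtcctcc

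GAS6 and TYRO3 held 3 GC boxes each and AXL held 2, counted on both strands. Of all 35116 windows of that length, 42.6% held at least 1, 24.3% at least 2 and 13.9% at least 3. The GC content was 66.8% for GAS6, 64.4% for AXL and 80% for TYRO3, beside a median of 58% over all windows. The AP-1 motif TGAGTCA or TGACTCA, in 4.20% of windows, and the TEAD motif GGAATG or CATTCC, in 11.9%, were not found in these 3 windows. A missing match says only that these letters are not in this stretch. A window before a second annotated start of AXL, chr19:41226505-41226754, held 1 TEAD motif and no GC box. A window before a second annotated start of TYRO3, chr15:41559722-41559971, held none of these motifs.

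After depletion the order from high to low was GAS6 (1.07), AXL (0.70), PROS1 (0.18) and TYRO3 (-0.70). GAS6 and AXL were closer to each other than the pooled SD of 0.42, while AXL, PROS1 and TYRO3 were each separated from the next by more. A difference between values varies more than a single value, so the gaps on both arrays are descriptions and were not tested. After transfection the order was AXL (0.28), PROS1 (0.21), TYRO3 (-0.48) and GAS6 (-1.37). There AXL and PROS1 lay within the SD of 0.45, and the other neighbours in the order did not. GAS6 was therefore the highest member on the first array and the lowest on the second, and the other members kept their order. Past 2-fold upward after depletion was 1 of 4 members, beside 3.31% of all genes, and past 2-fold downward after transfection 1 of 4, beside 1.37%. In each case this was GAS6, whose values were known when the family was picked.

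**Figure D2:**
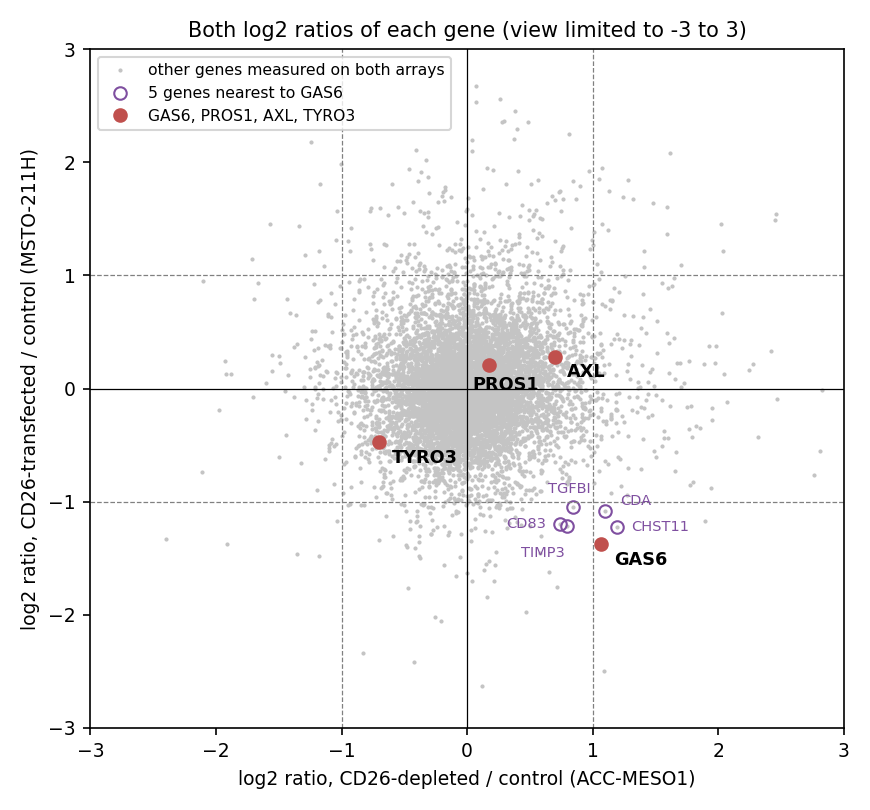
Each point is a gene measured on both arrays (8951 of 8956, as 5 lie outside the view of -3 to 3), with its log2 ratio after CD26 depletion on the x axis and after CD26 transfection on the y axis, and dashed lines at 2-fold. GAS6 sits at the lower right at 1.07 and -1.37 with its 5 nearest genes, TYRO3 at the lower left (-0.70 and -0.48), and AXL (0.70 and 0.28) and PROS1 (0.18 and 0.21) at the upper right.

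The genes most like each member were found by the Euclidean distance between their pairs of log2 ratios, over 2 arrays and 8956 genes. Nearest to GAS6 were CHST11, a chondroitin sulfotransferase gene (1.19 and -1.23, distance 0.19), CDA, cytidine deaminase (1.10 and -1.08, distance 0.29), and TIMP3, an inhibitor of matrix metalloproteinases (0.80 and -1.21, distance 0.31). They were followed by CD83, a surface marker of activated dendritic cells (0.74 and -1.20, distance 0.37), and TGFBI, a matrix protein gene (0.85 and -1.05, distance 0.39). None of these lay as far from 0 as GAS6 after transfection. Around GAS6 the genes were sparse, and around the other members they were dense. Nearest to AXL were ADM, adrenomedullin (0.71 and 0.27), the cell cycle kinase WEE1 (0.68 and 0.28), the transcription factor ZEB1 (0.68 and 0.30), the growth factor FGF2 (0.67 and 0.30) and FAM210A (0.67 and 0.28), all within a distance of 0.03. TYRO3 had RAD51C, a recombination protein gene (-0.71 and -0.49), COX17, a copper chaperone (-0.72 and -0.44), DMGDH (-0.66 and -0.51), the centrosome protein PCNT (-0.67 and -0.53) and TMEM243 (-0.68 and -0.42), within 0.06. SERPINH1, a collagen chaperone, and DCPS, USP45, ATP6V0E1 and GPA33 were all within 0.01 of PROS1.

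GAS6 lies near the end of the long arm of chromosome 13, so the measured genes beside it were examined, with 10 before it and all those after it. On the depletion array these 12 genes had a median of -0.25, from -0.97 to 0.55, and 8 were below 0. GAS6, at 1.07, was higher than every one of them. On the transfection array 11 genes had a median of -0.26, from -0.88 to 0.54, and 8 were below 0. GAS6, at -1.37, was lower than every one of them, and none of the neighbours was past 2-fold on either array. Since the GAS6 ratios picked the family, its place outside the range of its neighbours was likely beforehand and is a description only.

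The nearest genes were the cell cycle transcription factor TFDP1 (0.36 after depletion, -0.88 after transfection), SLC9D1 (-0.22 and -0.14) and DCUN1D2 (0.31 and -0.17) on one side. On the other were the Ras GTPase-activating protein RASA3 (-0.20, with no value after transfection) and CHAMP1 (-0.33 and -0.62). The coagulation factor gene F10, another Gla protein in this stretch, was at -0.55 and 0.54. Over chromosome 13 as a whole the median was 0.01 over 170 genes after depletion and -0.25 over 157 genes after transfection. So the genes of that chromosome were on average lower in the transfected cells, in the direction of GAS6. Relative to its neighbours GAS6 was at 1.31 after depletion and -1.12 after transfection, and relative to its chromosome at 1.06 and -1.12. These values stayed past 2-fold, which again describes a gene picked for its ratios. With up to 5 neighbours on each side the median after transfection was -0.54, and GAS6 measured from it would be short of 2-fold.

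**Figure D3:**
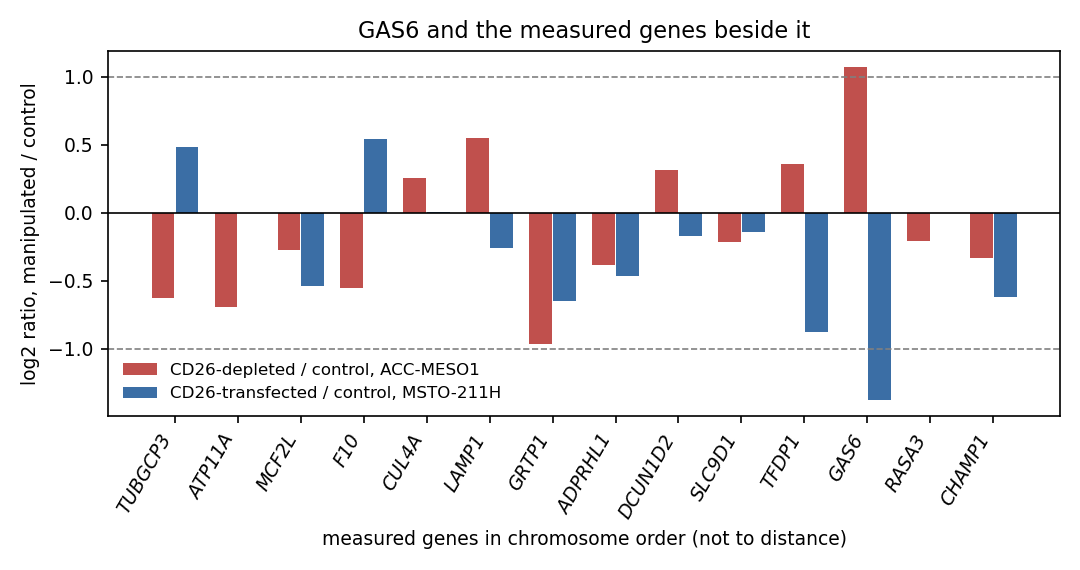
Log2 ratios of manipulated over control cells for GAS6 and the measured genes beside it, in chromosome order on the x axis (spacing not to distance), with dashed lines at 2-fold; a missing bar is a gene without a value or with a ratio near 0 (CUL4A after transfection). GAS6 is the highest bar after depletion (1.07) and the lowest after transfection (-1.37), and the neighbours lie between -0.97 and 0.55.

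The genes beside the other members were read in the same way. The 20 genes around AXL on chromosome 19 had medians of 0.02 and -0.15, none was past 2-fold, and the nearest were CYP2S1 (0.16 and -0.38), CYP2F1 (-0.18 and 0.06), CYP2A13 (-0.06 and 0.19), HNRNPUL1 (-0.09 and -0.30), TGFB1 (-0.13 and -0.03) and EXOSC5 (-0.08 and -0.06). AXL was 0.68 and 0.43 above those medians. Around TYRO3 on chromosome 15 the medians were -0.10 and 0.06, and TYRO3 was at -0.61 and -0.54 relative to them. Its nearest neighbours on one side were RPAP1 (-0.09 and 0.24), LTK (-0.51 and 0.41) and ITPKA (0.30 and -0.12), and MGA (0.24 and -0.06) and PLA2G4B (-0.25 and 0.05) on the other. Past 2-fold there were SPTBN5 (1.65 after depletion), a spectrin gene, and EPB42 (1.01 after transfection). Around PROS1 on chromosome 3 the medians were -0.09 and -0.11, and RYBP (1.02 after depletion) was past 2-fold. The nearest to PROS1 were EPHA3 (-0.39 after depletion), ZNF654 (0.09 and 0.00) and POU1F1 (-0.29 and -0.31) before it and NSUN3 (0.21 and 0.24), EPHA6 (-0.13 and 0.06) and ARL6 (0.05 and -0.06) after it.

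MERTK itself had no value, but the genes beside it on chromosome 2 did, with medians of 0.06 after depletion and 0.33 after transfection. The median of the whole chromosome was 0.13 after transfection. Past 2-fold after depletion were ACOXL (1.57), the interleukin antagonist gene IL36RN (1.66) and BCL2L11 (-1.17), the gene of the apoptosis inducer BIM. After transfection these were GCC2 (1.29), RGPD8 (1.02) and IL1B (-1.68), the interleukin 1 beta gene. ANAPC1 (0.03 and 0.57), ZC3H8 (0.47 and 0.78) and POLR1B (0.50 and 0.64) were also among the nearest.

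Regulators known to act on AXL transcription were measured in 20 of 22 cases after depletion, with a median of 0.14, and 17 after transfection, with a median of -0.05. JUN, an AP-1 subunit, was at least 2-fold higher after depletion (1.03, and 0.19 after transfection). ZEB2, a transcription factor of mesenchymal cells, was at least 2-fold lower after transfection (-1.16) and had no value after depletion. SP1 was at -0.16 and 0.22, SP3 at -0.12 and -0.29 and the zinc finger factor MZF1 at 0.30 and 0.37. The Hippo pathway effectors were at 0.22 and 0.21 for YAP1, and at -0.45 after depletion for WWTR1, the lowest member there. SNAI2 had the highest value of the list after transfection (0.85, and 0.42 after depletion), and ZEB1, which was among the nearest genes to AXL, was at 0.68 and 0.30.

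AXL and TYRO3 were set beside the other receptor tyrosine kinases, 53 of 55 of which were named on the array. After depletion 44 of these had a value, with a median of 0.01. Among all 46 receptor kinases with AXL and TYRO3 added, AXL ranked 6th from the top and TYRO3 was the lowest. Above AXL were STYK1 (1.65), LMTK2 (1.11), the ephrin receptors EPHB2 (0.94) and EPHA2 (0.75) and CSF1R (0.93), the receptor of a macrophage growth factor. Just above TYRO3 was MET (-0.67), the receptor of hepatocyte growth factor. After transfection 36 of the other kinases had a value, with a median of -0.03. AXL then ranked 12th from the top and TYRO3 8th from the bottom of 38. The ephrin receptor EPHA7 (1.84, with no value after depletion) and PTK7 (1.18, and 0.47 after depletion) were at least 2-fold higher, and the insulin receptor INSR (-1.29, and -0.29 after depletion) and RET (-1.21, and -0.19) at least 2-fold lower. EPHA2, at 0.75 and -0.80, had the signs of GAS6, and MET, at -0.67 and -0.72, those of TYRO3. The ratios of the 2 arrays had a Pearson r of 0.06 over 8956 genes, with medians near 0. Each pair of signs is therefore common among genes, and such matches, here and below, are descriptions. EGFR, which can pair with AXL, was at -0.01 and 0.21.

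The machinery that carboxylates and processes Gla proteins was a list of 9 genes, with medians of 0.10 over 8 genes after depletion and 0.01 over 7 after transfection. None was past 2-fold, and with so few genes and the shares over all genes given above, that count is near the background. GGCX, the carboxylase of the Gla residues, was at -0.25 and 0.28. VKORC1, the vitamin K epoxide reductase, was at 0.13 and 0.01, its paralog VKORC1L1 at 0.48 and -0.36, and the protease FURIN at 0.24 and -0.39. NQO1, a quinone reductase, was the lowest on both arrays (-0.62 and -0.46).

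Among other genes for Gla proteins, 7 of 12 were measured after depletion and 5 after transfection, with medians of -0.16 and -0.09. MGP, an inhibitor of tissue calcification, was at least 2-fold lower on both arrays (-1.18 and -1.48). Its sign was thus the same in both experiments, unlike that of GAS6. The highest were PRRG4 (0.23) after depletion and F10 (0.54) after transfection. The next list held partners of protein S together with other coagulation genes. At least 2-fold higher after transfection were 2 of its 9 measured genes, beside 4.09% of all genes. They were PROCR, the endothelial protein C receptor (0.53 and 1.54), and SERPINC1, antithrombin (-0.42 and 1.16), neither of them a partner of protein S itself. C4BPA, a chain of the complement regulator that carries protein S, was at 0.54 and 0.62, and C4BPB at 0.29 and -0.20. The lowest was the coagulation factor gene F8 after transfection (-0.40, and -0.13 after depletion).

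Genes for alternative TAM ligands and for the proteases that shed the receptors held 5 members. TUB, the gene of tubby, was at least 2-fold higher after depletion (2.13) and had no value after transfection. Its relative TULP1 was at -0.34 and, at least 2-fold lower, -1.02. Galectin 3, LGALS3, a ligand of MERTK, was at 0.51 and -0.27. The sheddase ADAM10, which cleaves AXL, was at -0.39 after depletion and at 1.19, past 2-fold, after transfection, so its signs were opposite to those of GAS6. ADAM17 was at -0.17 after depletion and had no value after transfection.

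**Figure D4:**
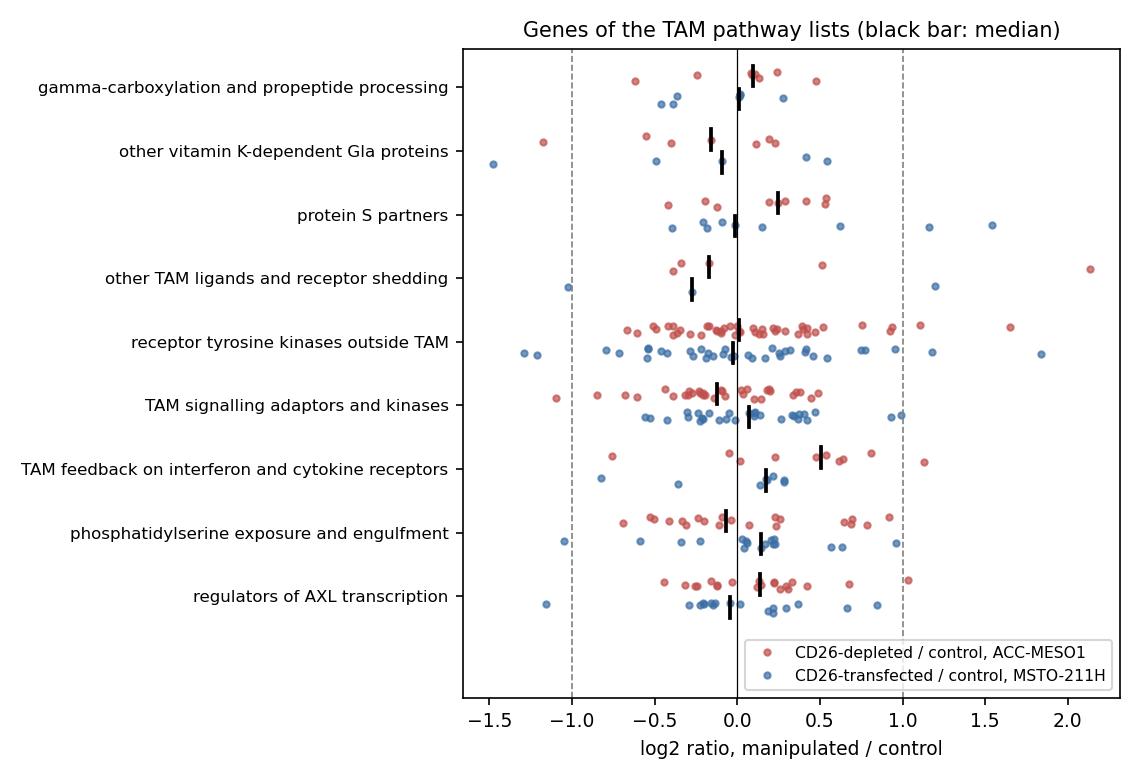
Log2 ratios of manipulated over control cells (x axis) for the genes of 9 lists around TAM signalling, 1 point per gene and array, with the median as a black bar and dashed lines at 2-fold. Medians run from -0.27 to 0.51, and most points lie inside 2-fold.

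The signalling genes downstream of the receptors had a median of -0.12 over 32 of 40 genes after depletion and 0.07 over 29 after transfection. Past 2-fold were 1 and 0 of them, near the background of all genes. CBLB, a ubiquitin ligase that acts on TAM receptors, was at -1.10 after depletion, past 2-fold, and at -0.53 after transfection. SHC1, an adaptor, was the highest after depletion (0.49, and -0.07 after transfection), and VAV3, an exchange factor for Rac, the highest after transfection (0.99, with no value after depletion). AKT1 was at -0.21 and 0.33, SRC at -0.07 and 0.27 and PTK2, focal adhesion kinase, at 0.15 and -0.31. LYN was the lowest after transfection (-0.56, and 0.06 after depletion).

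Genes of the interferon and cytokine receptor arm that TAM receptors use for feedback had medians of 0.51 over 10 of 12 genes after depletion and 0.17 over 8 after transfection. Above 0 were 8 of the 10 and 6 of the 8, beside 51.3% and 50.7% of all genes. Other lists had similar shares on 1 array. In the carboxylation and processing list 75% were above 0 after depletion and 57.1% after transfection. Among genes for phosphatidylserine exposure and uptake these shares were 45% and 76.5%. JAK1, the kinase of interferon receptors, was at least 2-fold higher after depletion (1.13, and 0.21 after transfection). The receptor chains IFNAR1 (0.81 and 0.28) and IFNAR2 (0.48 and 0.17), TYK2 (0.54 and 0.14) and IRF9 (0.62 and 0.28) were above 0 on both arrays, as AXL was. SOCS1, a cytokine signalling suppressor induced by TAM receptors, was at 0.64 and -0.83, with the signs of GAS6, and SOCS3 was at 0.02 and -0.36. TWIST1, a repressor induced by AXL in macrophages, was the lowest after depletion (-0.76) and had no value after transfection.

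Among genes for the exposure of phosphatidylserine and the uptake of dying cells, medians were -0.07 over 20 of 33 genes and 0.15 over 17. ANXA1, annexin A1, was at least 2-fold lower after transfection (-1.05, and -0.31 after depletion). The integrin chains ITGB5 (0.92 and 0.57) and ITGB3 (0.64 and 0.96), which bind the bridging protein MFGE8 (0.23 and 0.22), held the highest value on the first and the second array. Annexin A5, ANXA5, was at 0.78 and 0.23. The scramblase gene ANO6 was at 0.70 and -0.34, and the flippase gene ATP11A was the lowest after depletion (-0.69). Over all 9 lists, 5 of 154 distinct genes were at least 2-fold higher and 2 lower after depletion (3.25% and 1.30%). After transfection 5 of 130 were higher and 6 lower (3.85% and 4.62%). Over all genes the higher and lower shares were 3.31% and 1.56% after depletion and 4.09% and 1.37% after transfection. The list shares were near these except for lower genes after transfection, where the share of the lists was above that of all genes; no test was run on it. The 6 genes were MGP, TULP1, INSR, RET, ANXA1 and ZEB2. Measured from the ribosomal protein medians, the counts became 12 higher and 0 lower after depletion and 11 higher and 2 lower after transfection. That centring moves every gene upward. The shares over all genes were not computed for it, so these counts cannot be set beside the shares above.

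TAM receptors and their ligands are also genes of macrophages and vessels, so markers of other cell types were read as well. After depletion 6 of 12 myeloid markers had a value, from SPI1 (-0.11) to CSF1R (0.93), and after transfection 4, from CD68 (-0.89) to CSF1R (0.46). ITGAM, CD163, TYROBP and PTPRC had none. Lymphocyte markers had a value in 3 and 4 of 10 cases, with medians of -0.07 and -0.01. After transfection CD3E was at 1.88, whereas CD3D was at -0.76, CD3G at -0.04 and CD79A at 0.02. Endothelial markers had medians of -0.07 over 7 of 9 genes and -0.40 over 6, and fibroblast markers -0.03 over 8 of 10 and -0.49 over 6, with MFAP5 (1.96 after depletion) past 2-fold. Mesothelial markers had a value in 13 of 14 cases after depletion and 12 after transfection, with medians of 0.08 and 0.05. MSLN, mesothelin, was at 0.59 and -1.31, with the signs of GAS6, ITLN1 at 1.38 and -0.16, and KRT18 at 0.06 and -1.16. CALB2 (0.10 and -0.12) had these signs too. The reverse signs were held by WT1 (-0.37 and 0.57), UPK3B (-0.01 and 0.66), KRT5 (-0.30 and 0.10) and THBD (-0.19 and 0.15). A log2 ratio gives no level, so whether these markers are present in the cells cannot be read from it, and the part of other cells in the GAS6 ratio was not tested.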

How the data were processed

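Per the labels, the authors deposited a normalized log2 ratio for each probe of 2-colour arrays, with manipulated cells over control cells. Each array had a median of 0 over its probes. Not given in the sources used here: scanner, background correction, normalization method and the rule that left probes blank. No intensity of either channel was used. Of 24267 probes, 13395 had 1 gene symbol, 0 had several and 10872 had none. Listed symbols were kept where current (10076), updated through a unique RefSeq synonym (2285), or kept where several candidates existed (113). Probes of a gene were averaged. Values were computed with Python 3.11.15, numpy 2.4.6 and pandas 2.3.3, and the calculations were tested on simulated data.

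The members and lists were chosen with earlier results of these data known. Named are the members, DPP4, list genes past 2-fold on either array and the highest and lowest of each list, the 5 nearest genes by pattern, and the nearest and past-2-fold genome neighbours, with a few others named for their known role after their values were seen. Gene order came from RefSeq. With 1 array per comparison no test was run. Alternatives were other centrings, a common spread, other probe rules, thresholds of 0.5 and 1.5, genes on both arrays, listed symbols, and up to 5 or 20 neighbours on each side.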

Additional observations from a re-analysis of the deposited data

How the results depend on the processing

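GAS6 kept its signs and stayed past 2-fold under every centring and scale tried, from 1.06 to 1.38 after depletion and from -1.37 to -1.12 after transfection. No member changed sign, and AXL reached 2-fold (1.01 after depletion) with ratios measured from the ribosomal protein median. Rules for several probes change nothing for genes of 1 probe. Across the 9 lists, as deposited, 5 genes were at least 2-fold higher and 2 lower after depletion, and 5 higher and 6 lower after transfection. At a log2 threshold of 0.5 these counts were 22, 14, 18 and 15, and at 1.5 they were 2, 0, 2 and 0. Centred on ribosomal protein genes they were 12, 0, 11 and 2, and on genes of both arrays 2 were higher after depletion. The shares of higher and of lower genes over all genes were computed only at 2-fold as deposited. The counts at the other settings therefore have no background beside them and show only how the counts move. With up to 5 measured genes on each side, and only 1 measured after GAS6, the median of its neighbours after transfection was -0.54. Measured from that median the GAS6 ratio would be short of 2-fold. No array could be left out, since each comparison had 1, and no channel intensity was used, so a dim probe could not be told from a bright one.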
